A study of Bos taurus with 20 samples.

Results

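Levels in maternal blood were described for 8 genes of a signalling system at the inner face of the leukocyte membrane: PAG1, CSK, LAT, LAT2, LIME1, FYN, LYN and PTPN22. They were chosen by symbol, from 37063 genes with a row in the count files, because PAG1 (Entrez 614460) was abundant in every cow and its symbol is shared with a placental glycoprotein. The abundance of PAG1 therefore chose the set and is given without a test. Whole blood had been drawn at day 63 of gestation from 20 recipient cows, each carrying a female fetus after transfer of an embryo made in vitro from an oocyte of a beef donor and sex-sorted semen. The study's methods describe the recipients as lactating dairy cows, while a table of its samples lists them as Angus, so their breed is not taken as known, and an age is given there only as a range over all recipients, not for each cow. All cows formed 1 condition, with 1 library per cow (1 animal), and calf birth weight (BW) was 45.0 ± 10.1 kg (SD, n = 20), from 30 to 72.5 kg. Libraries held 24632077 to 39892111 counts (median 33412740). Cows are named below by the BW of their calf.

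PAG1 is a transmembrane adaptor of lipid rafts, the cholesterol-rich patches of the cell membrane in which antigen receptors signal. When a Src family kinase phosphorylates it, PAG1 draws in CSK, the kinase that switches Src family kinases off, so that the adaptor acts as a brake near the receptor. The pregnancy-associated glycoproteins, also abbreviated PAG, are secreted by trophoblast cells of the ruminant placenta and are measured in maternal plasma to diagnose pregnancy.

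The PAG1 row of the counts was the raft adaptor by its identifier, and genes of the placental family were almost without counts. PAG1 had 8682 to 16459 counts in each library and 235008 over the 20 cows. A separate gene, LOC281964, carries PAG1 as an older name in the ARS-UCD2.0 table used for names, where it lies among the glycoprotein genes and on another chromosome than the adaptor. LOC281964 had 0 counts in every cow, which allows at most 0.0752 to 0.122 CPM (counts scaled to the size of the library) depending on the library, a limit for counting error only that holds only if the row can collect reads. Whether it can was not tested: 4 marker genes of blood cells, FCGR1A, GZMA, CCR3 and ALOX15, were also at exactly 0 in every cow.

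Of 20 glycoprotein genes in the table, 4 had any count and 0 passed the filter of at least 10 counts in at least 5 cows. PAG8 had 61 counts in 10 cows and PAG11 had 17 counts in 4 cows, with at most 12 in a cow for either gene, and PAG15 and PAG10 had 2 counts and 1 count. The glycoprotein genes together had 81 counts, in 13 cows, and at most 14 in a library (the cow of the 54 kg calf). Because PAG1 was chosen for its abundance, its counts are shown beside these for description only, and the difference was not tested. How reads that fit several genes were treated is not given in the sources used here, so the counts of the glycoprotein genes are uncertain.

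**Figure D1:**
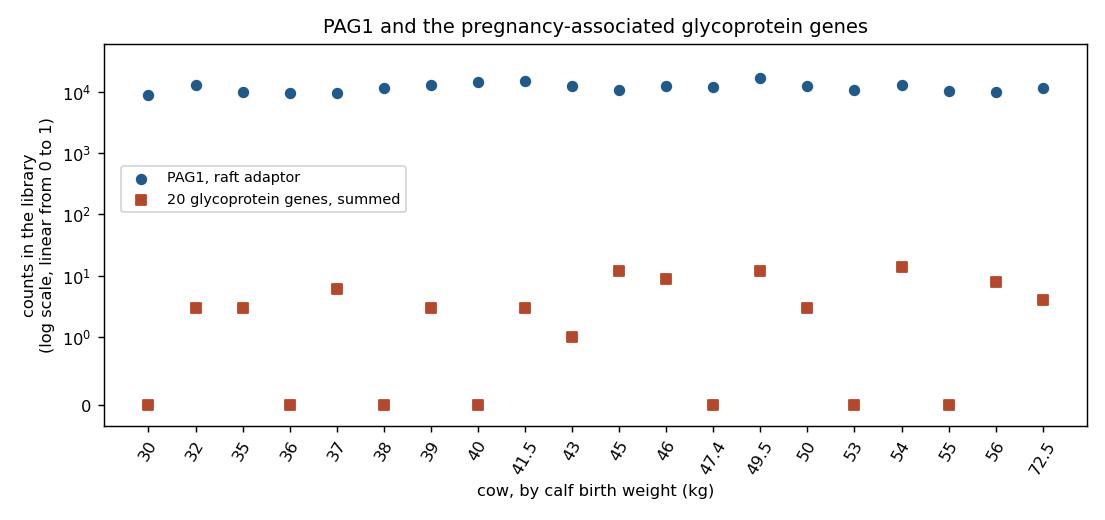
Counts per library (log axis, linear from 0 to 1) of PAG1 and of the 20 pregnancy-associated glycoprotein genes summed, for 20 cows ordered by calf BW in kg. PAG1 lay between 8682 and 16459 counts in every cow, and the summed glycoprotein genes between 0 and 14.

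Other trophoblast genes had few counts or were listed at 0, with the same limit on reading an exact 0. Of 13 such genes, 7 were at 0 in every cow: CSH2, PRP1, PRP2 and PRP4 (placental lactogen and prolactin-related genes), IFNT2 and IFNT3 (interferon tau, the signal by which the ruminant conceptus maintains the corpus luteum) and CDX2, a trophectoderm transcription factor. The other 6 (KRT18, KRT8, GCM1, HAND1, ELF5 and PLAC1) had few counts and did not pass the filter, KRT18 having the most with 38 counts in 5 cows. The whole trophoblast list summed to a median of 0.226 CPM per cow, and was highest in the cow of the 41.5 kg calf.

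All 8 genes of the raft set had counts in all 20 cows and passed the filter, which left 16206 genes. CPM values below were scaled with TMM factors. Since no transcript lengths were used, levels are compared between cows and not between genes, and the gene with the highest CPM of a marker list is named only as the one with the most counts.

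The level of PAG1 was 286 CPM in the lowest cow, 350 CPM at the median and 411 CPM in the highest. The cow with the 37 kg calf was lowest and stood apart from the next at 332 CPM, and the highest values came from the cows whose calves weighed 49.5 and 41.5 kg (411 and 409 CPM). All other cows lay between 332 and 384 CPM. The coefficient of variation over cows was 7.87%, which is higher than for 16.9% of the genes tested, so PAG1 was among the steadier genes of these libraries.

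CSK, the kinase that PAG1 recruits, ranged from 368 CPM through a median of 420 CPM to 478 CPM. The cow of the 41.5 kg calf had the lowest value and that of the 50 kg calf the highest, and the coefficient of variation was 6.62%, the smallest of the set. PTPN22, a tyrosine phosphatase that binds CSK and removes the activating phosphate of Src family kinases, ranged from 32.2 through 40.8 to 57.7 CPM. It was highest in the cows with calves of 56 and 46 kg (57.7 and 56.0 CPM), which stood above all others, and its coefficient of variation was 15.8%.

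LAT, the scaffold of T cell receptor signalling, ranged from 64.6 CPM in the cow of the 72.5 kg calf through a median of 77.0 CPM to 94.3 CPM in that of the 32 kg calf. LAT2, the related adaptor of B cells and myeloid cells, ranged from 146 CPM (47.4 kg calf) through 167 CPM to 217 CPM (50 kg calf). The cow of the 50 kg calf was thus the highest for both CSK and LAT2. LIME1, an adaptor of T cells that can also bind CSK, was the scarcest in counts, with 89 to 216 per library. It ranged from 3.03 through 4.21 to 6.34 CPM and had the widest coefficient of variation of the set, 21.9%. In the name table LIME1 overlaps SLC2A4RG, and the strand setting of the counting is not given in the sources used here, so its reads may be shared with that gene.

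FYN and LYN are Src family kinases, the enzymes on which CSK acts, FYN being best known in T cells and LYN in B cells and myeloid cells. FYN ranged from 306 CPM (41.5 kg calf) through 342 CPM to 408 CPM (47.4 kg calf). LYN ranged from 626 CPM (47.4 kg calf) through 786 CPM to 950 CPM (30 kg calf). The cow of the 47.4 kg calf therefore had the most FYN and the least LYN. Coefficients of variation were 8.05% for FYN and 10.2% for LYN.

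**Figure D2:**
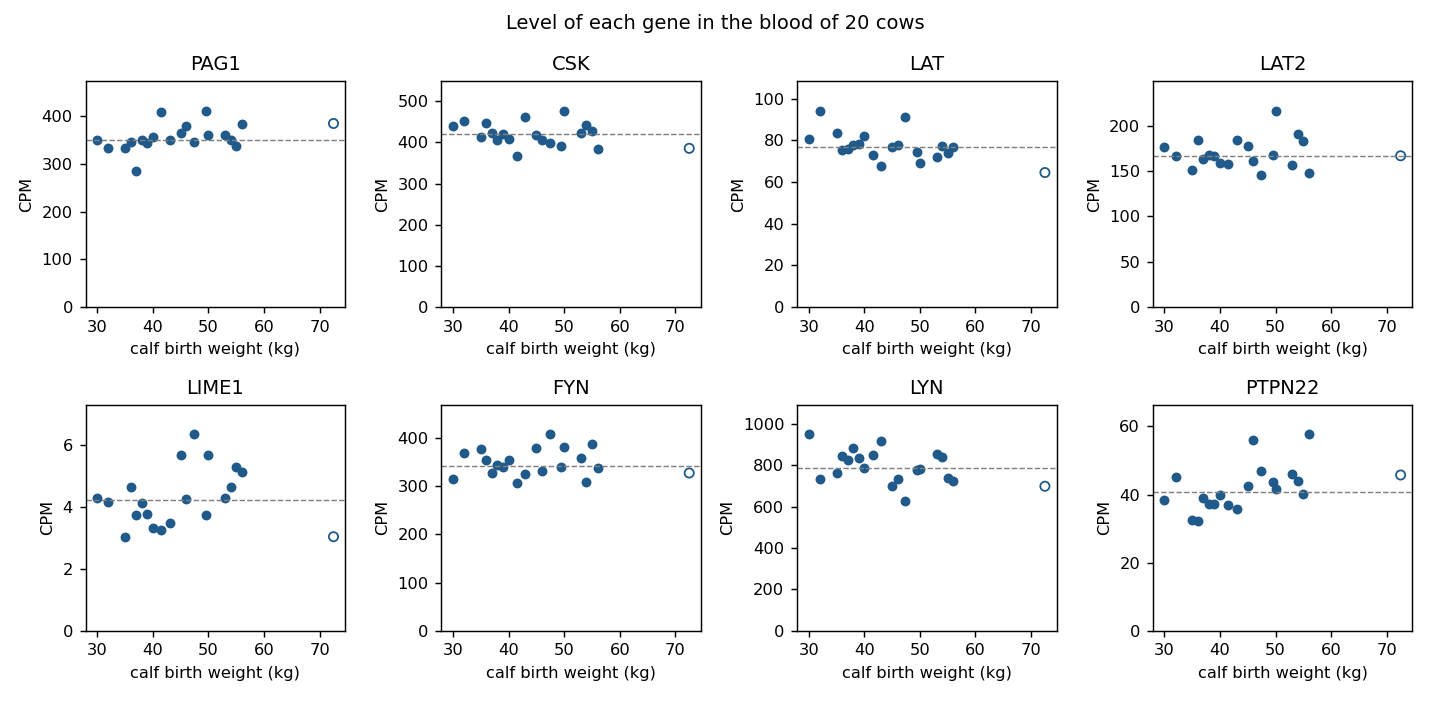
Level of each of the 8 genes (CPM with TMM scaling, linear axis from 0) against calf BW in kg, 1 point per cow. The dashed line is the median of 20 cows and the open point the cow of the 72.5 kg calf, left out of the slopes on BW. PAG1 spans 286 to 411 CPM, with the cow of the 37 kg calf lowest.

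The next question was whether the genes of the set rose and fell together among cows. Spearman's rho and Pearson's r were computed on log2 CPM over the 20 cows between each of the 8 genes and the 16205 other tested genes, 129640 relations in all. The p-values come from permutation tests (100000 resamples, two-sided), and the FDR is adjusted over the genes tested with each gene. In whole blood, fewer cells of a type and less RNA per cell cannot be told apart.

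The correlations of PAG1 with the rest of the set were mostly negative and did not pass the threshold. With PAG1, 0 of the 7 other genes had an FDR below 0.05 (permutation test), where 2.62% of all tested genes were positively and 2.07% negatively correlated at that threshold. Of these 7 correlations 6 were negative, and their median was -0.13 against 0.012 for all genes tested. After regression on a ribosomal protein score, the correlations with LAT, FYN and LIME1 were positive (0.16, 0.17 and 0.02), those with LYN and LAT2 were -0.55 and -0.51 with an FDR of 0.157 and 0.196 (permutation test), and, when scaled by library size alone, those with LAT, FYN and LIME1 were -0.21, -0.14 and 0.0030.

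The strongest was with CSK, in the negative direction. The rho was -0.58 (permutation p = 0.00799, FDR of 0.0915) and r was -0.53 (permutation p = 0.0151). When the cows with calves of 37 and 49.5 kg, which lay farthest from the median of PAG1, were left out, r was -0.64. The 4 cows with the most PAG1 (49.5, 41.5, 72.5 and 56 kg calves) were the 4 with the least CSK, between 368 and 390 CPM. The cow with the least PAG1 (37 kg calf) was near the median of CSK, at 424 CPM. Without the cow of the 50 kg calf, rho was -0.68 and the FDR 0.0336 (permutation test), the single case in which leaving out 1 cow brought PAG1 and CSK past the threshold. Other cows changed it the other way. Without the cow of the 72.5 kg calf, rho was -0.52 with an FDR of 0.215 (permutation test). Leaving out that of the 41.5 kg calf, rho was also -0.52, with an FDR of 0.196 (permutation test).

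PAG1 and PTPN22 had the only positive correlation, with rho of 0.38 (permutation p = 0.0991, FDR of 0.335), r of 0.37 (permutation p = 0.113) and 0.42 without the 2 farthest cows. With LAT, rho was -0.43 (permutation p = 0.0626, FDR of 0.261), r was -0.32 (permutation p = 0.166) and -0.48 without those 2 cows. With FYN, rho was -0.29 (permutation p = 0.219, FDR of 0.507). LYN, LIME1 and LAT2 had rho of -0.13, -0.08 and -0.07 with PAG1, with an FDR of at least 0.804 (permutation test). With 1 cow left out, rho with FYN was between -0.40 (without the 37 kg calf) and -0.18 (41.5 kg calf), and that with LYN between -0.24 (41.5 kg calf) and -0.04 (72.5 kg calf). The sign changed for LIME1, between -0.21 (35 kg calf) and 0.061 (72.5 kg calf), and for LAT2, between -0.19 (35 kg calf) and 0.025 (56 kg calf).

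Among all 28 pairs of the set, 13 correlations were positive and 15 negative, with a median rho of -0.059. CSK and LAT2 had the highest, with rho of 0.66 (permutation p = 0.00193) and r of 0.73 (permutation p = 0.00029). Its FDR was 0.0340 over the genes tested with CSK, of which 3.05% were called positive, and 0.164 over those tested with LAT2, of which 0% were (permutation tests). Leaving out the cows with calves of 41.5 and 50 kg, farthest from the median of CSK, r was 0.64. Leaving out any 1 of 8 cows (30, 36, 41.5, 43, 50, 54, 55 or 56 kg calves) raised the FDR to between 0.0596 and 0.0956 (permutation test).

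LYN and PTPN22 were opposed, with rho of -0.62 (permutation p = 0.00437, FDR of 0.184 with LYN and 0.0880 with PTPN22) and r of -0.54. After regression on neutrophil and T cell scores, rho of this pair was -0.34 (permutation p = 0.141). LIME1 and FYN had rho of 0.52 (permutation p = 0.0213, FDR of 0.501 with FYN) and r of 0.53. Neither pair passed the threshold. With LAT, LAT2, LIME1, FYN or LYN, 0% of all tested genes had an FDR below 0.05, whereas with PTPN22 1.62% were positively and 0.833% negatively correlated, and with CSK 3.05% and 4.35% (permutation tests).

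**Figure D3:**
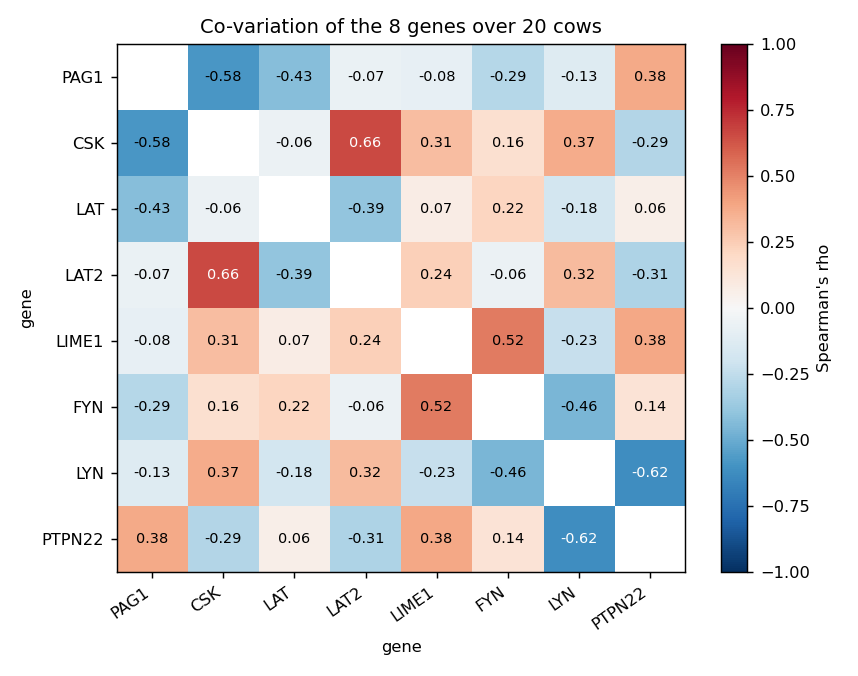
Spearman's rho of log2 CPM over 20 cows for each pair of the 8 genes, on a colour scale from -1 (blue) to 1 (red). PAG1 is negative with 6 of the 7 others, from -0.58 with CSK to -0.07 with LAT2, and CSK with LAT2 has the highest value, 0.66.

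The genes whose levels most resembled those of PAG1 were outside the raft set. The highest rho over 20 cows was 0.91 for SMG1, a kinase of nonsense-mediated mRNA decay, with r of 0.89 and 0.85 without the 2 farthest cows. PPIP5K2 (0.90), an inositol pyrophosphate kinase, INO80D (0.89), a subunit of a chromatin remodelling complex, and ZKSCAN8 (0.88), a zinc finger protein, followed. TAF1, a subunit of the general transcription factor TFIID, MYSM1, a histone deubiquitinase, the uncharacterised LOC101904377 and LOC785630, RASAL2, a Ras GTPase-activating protein, and ZBTB44, a zinc finger protein, all had rho of 0.86. For each of these 10 genes the permutation p for rho was 1e-05, the smallest that 100000 resamples can give, and the FDR was 0.00737.

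Among the lowest values were those of RPL7 (rho of -0.89) and RPS26 (-0.88), ribosomal proteins, SMS (-0.88), which makes spermine, and BLVRB (-0.86), which reduces biliverdin. Each also had an FDR of 0.00737 (permutation test). RPL7 had r of -0.81 and -0.80 without the 2 farthest cows.

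Ribosomal protein genes were then read as a group, a list chosen after these neighbours had been seen. Of 77 cytosolic ribosomal protein genes tested, 77 had a negative rho with PAG1, from -0.89 to -0.05, with a median of -0.66. Of these, 39 had an FDR below 0.05 (permutation test), beside 2.07% of all tested genes in that direction. The median rho of the same list was 0.29 with CSK, 0.33 with LAT and 0.42 with FYN, 0.16 with LIME1, and -0.06, -0.11 and -0.15 with LAT2, LYN and PTPN22.

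The share of a library's counts in ribosomal protein genes was 4.36% in the cow with the 49.5 kg calf, which had the most PAG1, 4.71% at the median and 5.47% in the cow of the 47.4 kg calf. PAG1 had rho of -0.77 with this share (adjusted permutation p = 0.00672 over 48 relations of the 8 genes with 6 library measures) and r of -0.59 (adjusted permutation p = 0.0930). With the share of counts in the 20 most abundant genes, PAG1 had rho of -0.72 (adjusted permutation p = 0.00912) and r of -0.60 (adjusted permutation p = 0.0930). CSK had rho of 0.75 (adjusted permutation p = 0.00672) and r of 0.76 (adjusted permutation p = 0.00480) with that share. With the share of globin counts, PAG1 had rho of -0.67 (adjusted permutation p = 0.0209) and r of -0.29 (adjusted permutation p = 0.617). With the total count of the library, rho was -0.06 for PAG1 and 0.08 for CSK. The part of these library measures in the correlations of PAG1 was not tested beyond one alternative: after regression on the mean z-score of the 77 genes, an alternative added after seeing the data, rho of PAG1 with CSK was -0.65, with an FDR of 0.0719 (permutation test).

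**Figure D4:**
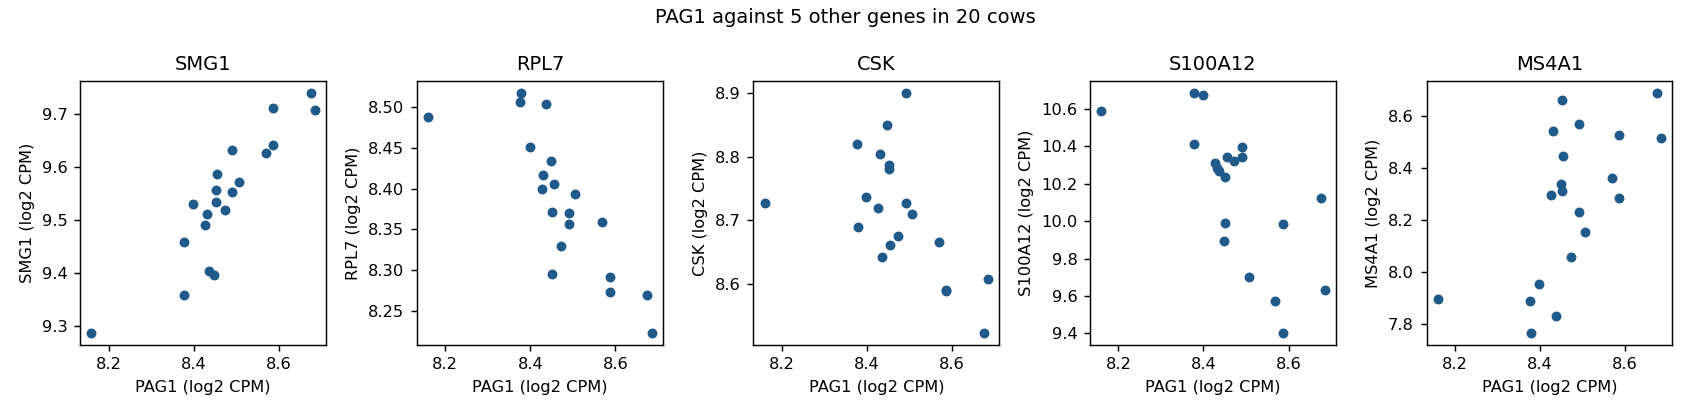
Log2 CPM of 5 genes against that of PAG1, 1 point per cow (20 cows, linear axes that do not start at 0). SMG1 has the highest rho with PAG1 (0.91) and RPL7 the lowest (-0.89), beside CSK (-0.58), the neutrophil gene S100A12 (-0.71) and the B cell gene MS4A1 (0.59).

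Marker lists of blood cell types were read beside the 8 genes. Whether the abundance of these cells had a part in the correlations was not tested, other than by the residuals given among the alternatives. Among B cell genes, 8 of 8 were positively correlated with PAG1, with a median rho of 0.45 and 0 with an FDR below 0.05 (permutation test). After regression on the ribosomal protein score the median was -0.04, and after neutrophil and T cell scores it was 0.22. MS4A1, which encodes CD20, had rho of 0.59 (FDR of 0.0825, permutation test), and CD22, with the highest CPM of the list, 0.52 (FDR of 0.140, permutation test). By r, MS4A1 was at 0.62 with an FDR of 0.0391, and CD22 at 0.54 with an FDR of 0.0999 (permutation tests). The B cell list summed to 1137 CPM in the cow of the 47.4 kg calf, 1701 CPM at the median and 2154 CPM in that of the 41.5 kg calf.

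Myeloid markers lay on the other side. Of 7 monocyte genes tested, 7 were negatively correlated with PAG1 (median rho -0.64), and CSF1R (rho -0.68, FDR of 0.0372) and CCR2 (rho -0.65, FDR of 0.0497) passed the threshold in the permutation test. By r, CSF1R passed (-0.69, FDR of 0.0164) and CCR2 did not (-0.61, FDR of 0.0597, permutation tests). The median rho of the list was -0.46 after neutrophil and T cell scores and -0.51 after the ribosomal protein score. It was -0.52 when scaled by library size alone. VCAN, with the highest CPM of the list, had rho of -0.29 (FDR of 0.504, permutation test). The monocyte list summed to 676 CPM (56 kg calf), 1210 CPM at the median and 1446 CPM (35 kg calf), and its member FCGR1A was at 0 in every cow.

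All 9 neutrophil genes were also negatively correlated with PAG1 (median rho -0.40). S100A12 (rho -0.71, FDR of 0.0304) and S100A9 (rho -0.68, FDR of 0.0412), calcium-binding proteins of neutrophils and monocytes, passed the threshold in the permutation test. By r, S100A12 passed (-0.69, FDR of 0.0183) and S100A9 did not (-0.55, FDR of 0.0969, permutation tests). The r of CD177 was positive, at 0.063. CSF3R, the receptor of granulocyte colony-stimulating factor and the gene with the highest CPM of the list, had rho of -0.33 (FDR of 0.432, permutation test). The neutrophil list summed to 3183 CPM (56 kg calf), 4700 CPM at the median and 5846 CPM (55 kg calf).

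For the other lists the median rho with PAG1 was -0.14 for T cells and -0.01 for natural killer cells (0.04 and 0.09 when scaled by library size alone, 0.37 and 0.06 after the ribosomal protein score), -0.38 for platelets and -0.41 for erythroid cells. The T cell gene CD5 (rho -0.67, FDR of 0.0414), a surface receptor that dampens antigen receptor signalling, and HBB, beta globin (rho -0.67, FDR of 0.0437), were the called genes of these lists by rho (permutation test). By r neither passed the threshold (CD5 -0.48, FDR of 0.183, and HBB -0.46, FDR of 0.211, permutation tests). CD3E, with the highest CPM of the T cell list, had rho of -0.14, GNLY of the natural killer list 0.01 and TUBB1 of the platelet list -0.30. IL5RA was the single eosinophil gene with counts (rho 0.26), CCR3 and ALOX15 being at 0 in every cow, as was GZMA of the natural killer list. The T cell list summed to 896 CPM (43 kg calf), 1098 CPM at the median and 1392 CPM (47.4 kg calf), the natural killer list to 185, 264 and 392 CPM, the platelet list to 458, 713 and 1433 CPM, and the erythroid list to 53.7, 121 and 1101 CPM.

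For the other genes of the set, the medians of rho with each list are given without a test. LAT had a median of 0.43 with T cell genes (10 of 10 positive) and -0.45 with B cell genes (0 of 8 positive). FYN had 0.47 with T cell genes (10 of 10 positive) and -0.54 with B cell genes (0 of 8 positive). PTPN22 had 0.51 with both T cell and natural killer genes and -0.43 with B cell genes. PTPN22 also had rho of 0.70 with IL5RA (permutation p = 0.00085, FDR of 0.0469), r of 0.79 and 0.60 without the cows with calves of 56 and 46 kg, and a median of -0.46 with erythroid genes. For LAT, FYN and PTPN22 the T cell medians were positive and the B cell medians negative.

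LYN and LAT2 had the opposite signs. LYN had a median of 0.62 with B cell genes (8 of 8 positive), -0.55 with T cell genes and -0.52 with natural killer genes. LAT2 had 0.45 with B cell genes (8 of 8 positive) and -0.43 with T cell genes (0 of 10 positive). CSK had 0.41 with neutrophil genes (9 of 9 positive), 0.37 with monocyte genes (7 of 7 positive) and 0.02 with B cell genes. LIME1 had 0.30 with natural killer genes, -0.26 with B cell genes and 0.42 with IL5RA, the single eosinophil gene with counts. The median over all tested genes was within 0.012 of 0 for each of the 8 genes.

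**Figure D5:**
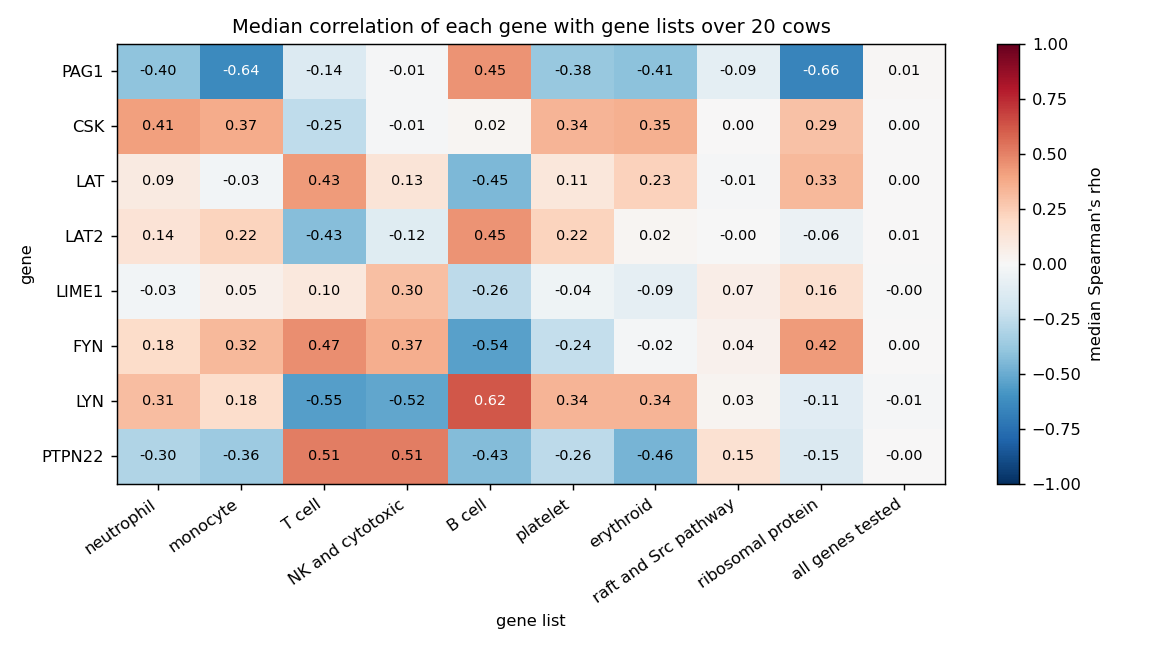
Median Spearman's rho over 20 cows of each of the 8 genes (rows) with the tested genes of each list (columns), on a colour scale from -1 (blue) to 1 (red). The PAG1 row is positive for B cell genes (0.45) and negative for monocyte (-0.64), neutrophil (-0.40) and ribosomal protein genes (-0.66), and the last column gives all genes tested.

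A list of 54 other genes of raft and Src kinase regulation was read in the same way, and 53 of them passed the filter (FRK did not). With PAG1, 2 were positively and 1 negatively correlated at an FDR below 0.05 (permutation test), which is 3.77% and 1.89% of the list beside 2.62% and 2.07% of all tested genes. The shares were near those of all genes, and the median rho was -0.09 (0.0075 after the ribosomal protein score). CBLB, a ubiquitin ligase that limits lymphocyte receptor signalling, had rho of 0.80 (FDR of 0.0144, permutation test), r of 0.80 and 0.74 without the 2 farthest cows. PLCG2, the phospholipase downstream of the B cell receptor and of several myeloid receptors, had rho of 0.72 (FDR of 0.0303, permutation test), r of 0.74 and 0.70. DOK1, an adaptor that dampens tyrosine kinase signalling, had rho of -0.68 (FDR of 0.0401, permutation test), r of -0.67 and -0.56.

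The next highest on this list were PTPRC (0.61), the phosphatase CD45 that activates Src family kinases, SYK (0.52) and TEC (0.48), tyrosine kinases, each with an FDR of at least 0.0772 (permutation test). The next lowest were the Src family kinase FGR (-0.53), the adaptor DOK3 (-0.49), the raft protein FLOT1 (-0.47) and the adaptor GRAP2 (-0.45), each with an FDR of at least 0.135 (permutation test).

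Finally, the dependence of the 8 genes on calf BW was estimated over 19 cows, leaving out the heaviest calf (72.5 kg), with edgeR's quasi-likelihood test fitted to all 16206 genes. Of the 8 genes, 0 had an FDR below 0.05, as did 0% of all genes tested. DESeq2's Wald test also called 0 of the 8, where it called 1.22% of its 15478 genes. At an unadjusted p below 0.05, 2 of the 8 were positively associated (PTPN22 and LIME1) and 0 negatively, where 6.78% and 7.08% of all genes were. With all 20 cows, 1 was positively (PTPN22) and 2 were negatively (LAT and LYN) associated at that threshold, where 7.02% and 6.42% of all genes were. The tally also changed when 1 of several other cows was left out, as given for each gene below.

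PTPN22 had the largest of these slopes relative to its error, 0.016 log2 units per kg (SE 0.0051), which is 1.11-fold over 10 kg (95% interval 1.03 to 1.20). Its unadjusted p was 0.00612 and its FDR was 0.193 with edgeR and 0.112 with DESeq2. With 1 cow left out, the lowest slope of PTPN22 was 0.012, without the 56 kg calf (unadjusted p of 0.0378, FDR of 0.468 with edgeR). The highest was 0.020, without the 32 kg calf (unadjusted p of 0.000925, FDR of 0.0804 with edgeR). The eosinophil gene IL5RA, highest like PTPN22 in the cows with calves of 56 and 46 kg (200 and 148 CPM), had a slope of 0.053 (SE 0.019, unadjusted p of 0.0102, FDR of 0.216 with edgeR), and its part in the slope of PTPN22 was not tested. LIME1 had a slope of 0.018 (SE 0.0079, unadjusted p of 0.0382, FDR of 0.329 with edgeR). It was 0.0053 with all 20 cows (unadjusted p of 0.485 with edgeR), and leaving out any 1 of 5 cows (35, 39, 50, 55 or 56 kg calves) brought the unadjusted p to between 0.0518 and 0.0697. LAT had a slope of -0.0067 (SE 0.0032, FDR of 0.364 with edgeR), which was -0.0034 without the 32 kg calf, and its unadjusted p was between 0.0118 and 0.0481 when any 1 of 4 cows (36, 41.5, 43 or 47.4 kg calves) was left out. LYN had a slope of -0.0071 (SE 0.0040, FDR of 0.460 with edgeR), which was -0.0045 without the 30 kg calf and -0.0087 without the 32 kg calf (unadjusted p of 0.0441 with edgeR). With all 20 cows these were -0.0074 and -0.0066 (unadjusted p of 0.00825 and 0.0385 with edgeR).

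For PAG1 the slope was 0.0051 (SE 0.0032, unadjusted p of 0.130, FDR of 0.517 with edgeR). This slope is 1.04-fold over 10 kg (95% interval 0.988 to 1.09), so the interval included no change. Without the 55 kg calf the slope was 0.0073 (unadjusted p of 0.0425 with edgeR). CSK had a slope of -0.0024 (95% interval 0.944 to 1.03-fold over 10 kg, and -0.00085 without the 32 kg calf), LAT2 of 0.0016 (0.951 to 1.07-fold) and FYN of 0.0017 (0.962 to 1.06-fold), with an FDR of at least 0.767 with edgeR. Leaving out 1 cow put LAT2 between -0.00025 (50 kg calf) and 0.0044 (56 kg calf). It put FYN between -3.3e-05 (30 kg calf) and 0.0042 (54 kg calf), and FYN was -2.2e-05 with all 20 cows.

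Of the 53 other raft and Src pathway genes, 0 had an FDR below 0.05 with edgeR, and 7 were positively and 2 negatively associated at an unadjusted p below 0.05 (13.2% and 3.77%, beside 6.78% and 7.08% of all genes). The smallest p was that of NCK2, an adaptor linking receptors to the actin skeleton, with a slope of 0.039 (unadjusted p of 0.00137, FDR of 0.140 with edgeR). NCK2 was singled out after its value was seen. It was highest in the cows with calves of 56 and 46 kg (82.6 and 69.0 CPM), as were BTK (167 and 146 CPM) and PTPRE (315 and 298 CPM), also among the positive genes. These cows were the highest for IL5RA too, whose part in these slopes was not tested. The other positive genes had different pairs of highest cows. These had calves of 49.5 and 56 kg for PTPN12 and of 72.5 and 46 kg for CBLB. For CBL they had calves of 50 and 54 kg, and for LCP2 of 46 and 50 kg. The median slope of the list was 0.0015 and that of all genes tested was -0.00072.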

How the data were processed

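RNA of whole blood in Tempus tubes was sequenced as 1 library per cow. For the libraries, the labels give a SMARTer Stranded kit and the paper's methods a Truseq-stranded mRNA kit. After trimming (Trimmomatic) and alignment to ARS-UCD1.3 (STAR 2.7.0b), the authors obtained counts per Entrez gene with featureCounts (Subread 2.0.3) and deposited these raw counts without normalization. Strand setting and treatment of multi-mapping reads are not given in the sources used here. All 37063 identifiers matched the ARS-UCD2.0 name table. Chromosomes and overlaps between genes are those of that table. Because the builds differ, no coordinates or lengths from it entered the levels. No library repeated another (chi-square per degree of freedom at least 12.7 over 190 pairs).

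Slopes on BW used edgeR 4.0.16 (R 4.3.3) with TMM factors. DESeq2 1.42.0, limma 3.58.1 with voom, other factors and filters, all 20 cows, the rank of BW and leaving out each cow were alternatives. Correlations used log2 CPM with a prior count of 2 and Benjamini-Hochberg adjustment. Both steps were tested on simulated data. No batch is named, so no comparison within batches was made, and p-values measure the spread between cows.

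The 8 genes and the lists were chosen with earlier results of these data known. Named genes were the 8, the 10 highest and 5 lowest correlates of PAG1, the gene of highest median CPM in each cell type list, the 5 highest and 5 lowest pathway genes by correlation with PAG1 and glycoprotein genes with a count; 1 of these genes is not reported here. Called list genes, MS4A1 and trophoblast genes were named after their values were seen. IFNT, FPR1, PRG3, EPX and SIGLEC14 had no unambiguous match. Other tools were matplotlib 3.10.9, pandas 2.3.3, scipy 1.17.1, numpy 2.4.6 and Python 3.11.15.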

Additional observations from a re-analysis of the deposited data

How the results depend on the processing

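No paired analysis was possible because all cows form 1 group. The count of the 8 genes with an FDR below 0.05 on BW was 0 under every alternative run, including each of 19 fits without 1 cow (edgeR). With PAG1 the count over the 7 other genes was 0 to 1 when 1 cow was left out, the 1 being CSK once the cow with the 50 kg calf was left out, and 0 under the other alternatives. The percentage of tested genes with a rho of 0.5 or more with PAG1 was 8.34 over 20 cows, 6.97 to 9.98 when 1 cow was left out, 10.8 with library size alone, 6.33 after the ribosomal protein score and 5.35 with every gene that had a count, which takes in more genes of low counts. Some weak relations changed sign or size. The slope of FYN was -2.2e-05 with all 20 cows and between -3.3e-05 and 0.0042 with 1 cow left out, that of LAT2 between -0.00025 and 0.0044 and that of CSK between -0.0031 and -0.00085. The rho of PAG1 with LIME1 was 0.0030 with library size alone, 0.061 in 19 cows and 0.021 after the ribosomal protein score, and between -0.21 and 0.061 with 1 cow left out, and that with LAT2 was between -0.19 and 0.025 with 1 cow left out and -0.51 after the ribosomal protein score. After the ribosomal protein score, rho of PAG1 was 0.16 with LAT, 0.17 with FYN and -0.55 with LYN. The cause was not tested. The rho of PAG1 with CSK was between -0.68 and -0.52 over all alternatives. The median rho of the B cell list with PAG1 was 0.22 after neutrophil and T cell scores and -0.04 after the ribosomal protein score, and that of the neutrophil list was -0.60 after the latter. The T cell list was at 0.37 after the ribosomal protein score. The neutrophil and T cell lists after their own scores are near 0 by construction and are not read. The slope of LIME1 was 0.0053 with all 20 cows and 0.015 to 0.021 with 1 cow left out. LIME1, with 89 to 216 counts, had the least depth of the 8 genes.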
